A study of Caenorhabditis elegans with 2 samples.

Results

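Of the 346 annotated snoRNA genes on the nuclear chromosomes of Caenorhabditis elegans, 58 had a SCRT-1 site at their start (16.8%, exact 95% interval 13.0 to 21.1). The 58 genes were selected on the peak lists themselves: the summit of a peak in the conservative list, which holds the 1211 peaks that passed the comparison of the 2 replicates, lay within 100 bp of the annotated start. The other 288 snoRNA genes had no such summit. The 58 genes held 57 peaks, because C51F7.4 and C51F7.3 share 1.

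SCRT-1 is a zinc finger transcription factor related to Scratch and Snail proteins of other animals. Chromatin was immunoprecipitated with an anti-GFP antibody from whole early embryos, 2 h old and collected by egg bleaching, and sequenced (ChIP-seq) in 2 biological replicates, which are the only group of the series. The strain, OP802, carries the array wgIs802, a fosmid copy of scrt-1 tagged with TY1, EGFP and 3xFLAG, together with unc-119(+) in an unc-119 (tm4063) background, so the tagged protein comes from a transgene added to the genome. Whole embryos mix all of their cells, so a signal cannot be assigned to a cell type. The deposited files are peak lists, the read depth behind them is unknown, and peaks from untagged worms or from other proteins were not analysed here.

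Small nucleolar RNAs guide the chemical modification of ribosomal RNA. Box C/D snoRNAs direct 2′-O-methylation and carry short conserved letters, box C near the 5′ end and box D near the 3′ end, while H/ACA snoRNAs direct pseudouridylation and end in ACA followed by a few bases. Many nematode snoRNA genes lie inside introns of protein-coding genes. RNA polymerase III reads tRNA genes from an A box and a B box inside the gene, which the factor TFIIIC binds, and it stops at a run of T. In budding yeast, a snoRNA gene is known that carries an A box and a B box in a leader ahead of the mature RNA.

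The sequences ahead of the strongest of these genes, each running from 110 bases before to 10 bases after the annotated start (10 bases of the annotated RNA), show the letters on which much of what follows turns. Capitals mark a word like the A box (TGGCNNAGT, up to 2 mismatches) and, 20 to 75 bases further on, a word like the B box (GTTCGANNC, up to 1 mismatch). The pairing of the words and the mismatches allowed were chosen after the sequences had been seen, so counts of the pair are descriptions. All sequences are from the RefSeq copy of the genome (WBcel235, the same coordinates as ce11), 5′ to 3′ on the strand of the gene.
C51F7.3 (chrV:12303598-12303717, plus strand): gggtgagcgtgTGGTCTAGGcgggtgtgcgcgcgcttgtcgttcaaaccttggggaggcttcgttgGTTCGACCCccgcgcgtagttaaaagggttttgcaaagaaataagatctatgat
W03C9.9 (chrII:11960788-11960907, plus strand): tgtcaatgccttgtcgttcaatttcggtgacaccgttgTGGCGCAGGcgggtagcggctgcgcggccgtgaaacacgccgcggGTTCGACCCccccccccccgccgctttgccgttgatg
T06C12.16 (chrV:15873917-15874036, minus strand): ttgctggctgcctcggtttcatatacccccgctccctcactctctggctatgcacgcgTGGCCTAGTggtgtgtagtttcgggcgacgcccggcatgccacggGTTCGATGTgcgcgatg
T03F7.8 (chrV:11314148-11314267, plus strand): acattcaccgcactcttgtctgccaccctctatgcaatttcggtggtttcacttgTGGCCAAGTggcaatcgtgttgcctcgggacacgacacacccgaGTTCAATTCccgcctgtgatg
Y43F8C.22 (chrV:19643178-19643297, minus strand): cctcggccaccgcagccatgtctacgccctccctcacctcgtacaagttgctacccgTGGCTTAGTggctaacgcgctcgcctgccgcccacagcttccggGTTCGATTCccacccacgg

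For comparison, W03G11.t1 (WBGene00014540), a tRNA-Lys gene per RefSeq with a site of signal 500.5, is shown from 10 bases before its start to its end with its A-like and B-like words in capitals. In the snoRNA leaders above, the words lie before the annotated RNA, apart from the last bases of the B-like word of T06C12.16. In the tRNA gene they lie inside it.
W03G11.t1 (chrX:12106147-12106229, minus strand): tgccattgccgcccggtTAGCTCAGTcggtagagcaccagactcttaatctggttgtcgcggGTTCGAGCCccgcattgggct

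Not every gene with a strong site has such a pair of words. ZK994.7 and F38E11.14 are among the strongest and had none within the mismatches allowed. F38E11.14 missed by the B-like word only: tggcgcagg meets the limit for the A-like word, and gttcatttc further on exceeds that for the B-like word. ZK930.15, the weakest of the 58, whose leader begins with a GA repeat, had no pair either.
ZK994.7 (chrV:8500469-8500588, plus strand): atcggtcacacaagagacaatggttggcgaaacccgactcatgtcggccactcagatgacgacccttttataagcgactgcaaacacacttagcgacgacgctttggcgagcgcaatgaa
F38E11.14 (chrIV:9477690-9477809, minus strand): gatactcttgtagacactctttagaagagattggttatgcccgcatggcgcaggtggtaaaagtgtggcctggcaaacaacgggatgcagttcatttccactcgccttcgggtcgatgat
ZK930.15 (chrII:11890687-11890806, minus strand): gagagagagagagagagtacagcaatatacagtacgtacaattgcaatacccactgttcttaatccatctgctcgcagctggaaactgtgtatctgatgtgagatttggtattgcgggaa

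The values that chose the 58 genes are given first and carry no test. Over all 46890 annotated nuclear genes, 641 (1.37%) had a conservative summit within 100 bp of the start, and the share was 41.2% for tRNA genes (252 of 612) and 0.391% for protein-coding genes (78 of 19973). With each replicate's own thresholded list in place of the conservative one, 52 snoRNA genes had a summit in replicate 1, where the share over all genes was 0.987%, and 51 in replicate 2, where it was 0.926%. Of the 58 genes, 47 had a peak that overlapped a peak of both replicates' own lists, 3 of replicate 1 only, 3 of replicate 2 only and 5 of neither. The 5 found in neither list are the 5 genes of lowest signal, the highest of which is W06H8.17 with 88.6.

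The signal is the value that the authors deposited for each peak, on a scale that no source used here states, and it serves to rank sites. Across the 58 genes the pooled signal had a median of 323 (quartiles 176 and 409, range 56.7 to 993). In replicate 1 the median was 172 and in replicate 2 it was 134. The replicate 1 value was the higher one at 52 of the 58 genes, and also at 737 of the 904 sites that lie at neither a snoRNA nor a tRNA gene. The order of the genes was much alike in the replicates, with a Spearman rho of 0.94 over the 57 peaks, 0.86 over 250 sites at tRNA genes and 0.37 over the 904 others. Pearson's r of the log2 signal was 0.95 over the 57 peaks, 0.86 over the tRNA sites and 0.72 over the 904. The quartiles of the pooled signal were 171 and 406 over the 57 peaks and 77.2 and 108 over the 904, a narrower range, so these values are descriptions of points from the same 2 libraries and not a comparison of how well the kinds of site repeat.

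**Figure D1:**
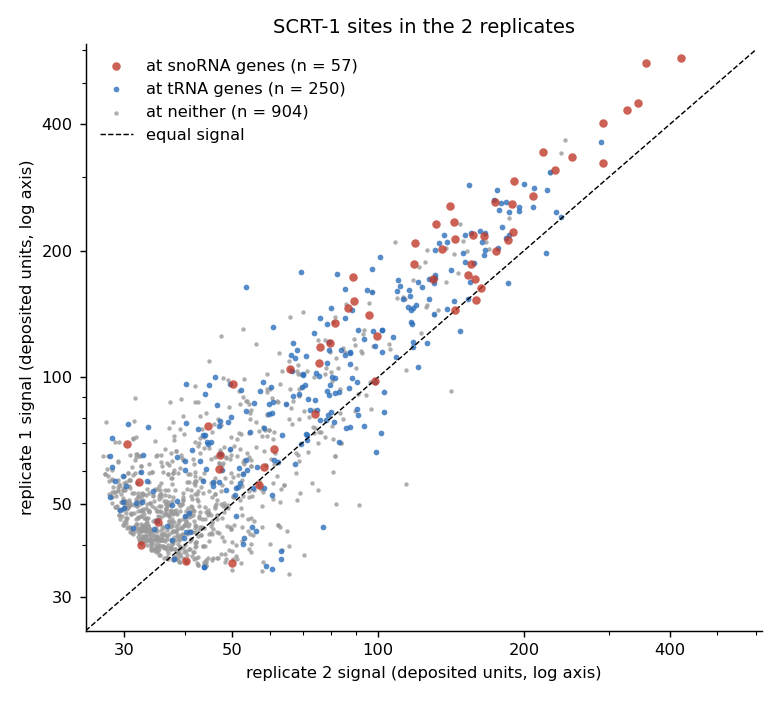
Signal of every conservative site in replicate 1 (vertical, log axis) against replicate 2 (horizontal, log axis), in the deposited units. Sites at snoRNA genes (57, red) reach the highest values, 574 in replicate 1 and 422 in replicate 2, and lie mostly above the dashed line of equal signal, as do sites at tRNA genes (250, blue) and the 904 others (grey).

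Sites at snoRNA genes stood at the top of the whole list. They made up 7 of the 10 strongest sites and 32 of the 100 strongest, and tRNA genes held another 50 of those 100. The median was 313 over the 57 peaks at snoRNA genes, against 170 over the 250 at tRNA genes and 86.6 over the 904 others. The weakest snoRNA site ranked 1151st of 1211.

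The strongest site of the series lies on the 2 neighbouring snoRNA genes C51F7.4 and C51F7.3 on chromosome V, with a pooled signal of 993 and values of 574 in replicate 1 and 422 in replicate 2. C51F7.3 (WBGene00014290, chrV:12303708-12303783) sits in intron 4 of frm-7, which encodes a FERM domain protein, and the summit lies 71 bp before its start. The same summit lies 38 bp inside C51F7.4 (WBGene00219860, chrV:12303599-12303693), which ends just ahead of C51F7.3 on the same strand. Both words of the C51F7.3 leader printed above lie within the annotated C51F7.4, so an annotated snoRNA here covers the tRNA-like leader of the next one. Which of the 2 genes the peak belongs to cannot be told from a summit.

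W03C9.9, between genes on chromosome II, had a signal of 921, with 560 in replicate 1 and 357 in replicate 2. ZK265.10, also between genes, had 789, with 448 in replicate 1 and 344 in replicate 2. T06C12.16, 85 bp from the chemoreceptor gene str-56, had 757, with 433 in replicate 1 and 326 in replicate 2. These 3 genes encode short RNAs of 62, 62 and 72 bases. In each replicate they ranked, among the 58 genes, just below the C51F7 pair.

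T03F7.8 lies in intron 7 of cutl-18, a gene for a cuticlin-like protein, on the opposite strand, and had a signal of 702, with 403 in replicate 1 and 291 in replicate 2. T02E1.9, which overlaps a coding gene and was not counted as intronic, had 614, with 323 in replicate 1 and 291 in replicate 2. ZK994.7, in intron 17 of the peroxidasin gene pxn-1, had 584, with 333 in replicate 1 and 252 in replicate 2. Its summit lay 12 bp before the start, closer to the RNA than at most of the 58 genes, and its leader, printed above, has no pair of tRNA-like words.

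The next 7 genes by signal were all intronic. Y43F8C.22 had a signal of 570, with 343 in replicate 1 and 219 in replicate 2. F38E11.14, in an intron of the cyclic nucleotide-gated channel gene cng-3, had 534, with 311 in replicate 1 and 231 in replicate 2. C04G6.12, opposite to the MAP kinase gene mpk-2, had 480, with 292 in replicate 1 and 191 in replicate 2. In these 3 genes replicate 1 was higher, by a ratio between 1.34 and 1.57. M106.6, in the condensin gene mix-1, had 476, with 270 in replicate 1 and 209 in replicate 2. C05D2.15, in madf-11, had 456, with 258 in replicate 1 and 189 in replicate 2. Both had B box letters in full ahead of the RNA. C27H5.9, opposite to pdl-1, had 434, with 261 in replicate 1 and 174 in replicate 2. F55A11.10, in F55A11.6, had 410, with 222 in replicate 1 and 190 in replicate 2.

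At the weak end, R166.7 in the kinase gene mnk-1 was the fourth lowest with 81.5. Y37E3.20, in pcyt-2.1, had 77.8, with 36.7 in replicate 1 and 40.3 in replicate 2. Y102A11A.16, 1 of the 2 genes of the set on the X chromosome, had 68.5, with 45.4 in replicate 1 and 35.3 in replicate 2. ZK930.15 had 56.7, with 36.3 in replicate 1 and 49.97 in replicate 2. None of these 4 overlapped a peak of either replicate's own thresholded list. Their values in replicate 1, 36.3 to 45.4, lay below the median of 49.8 over the 904 sites elsewhere, and those in replicate 2, 32.6 to 49.97, lay on both sides of its median of 39.1.

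**Figure D2:**
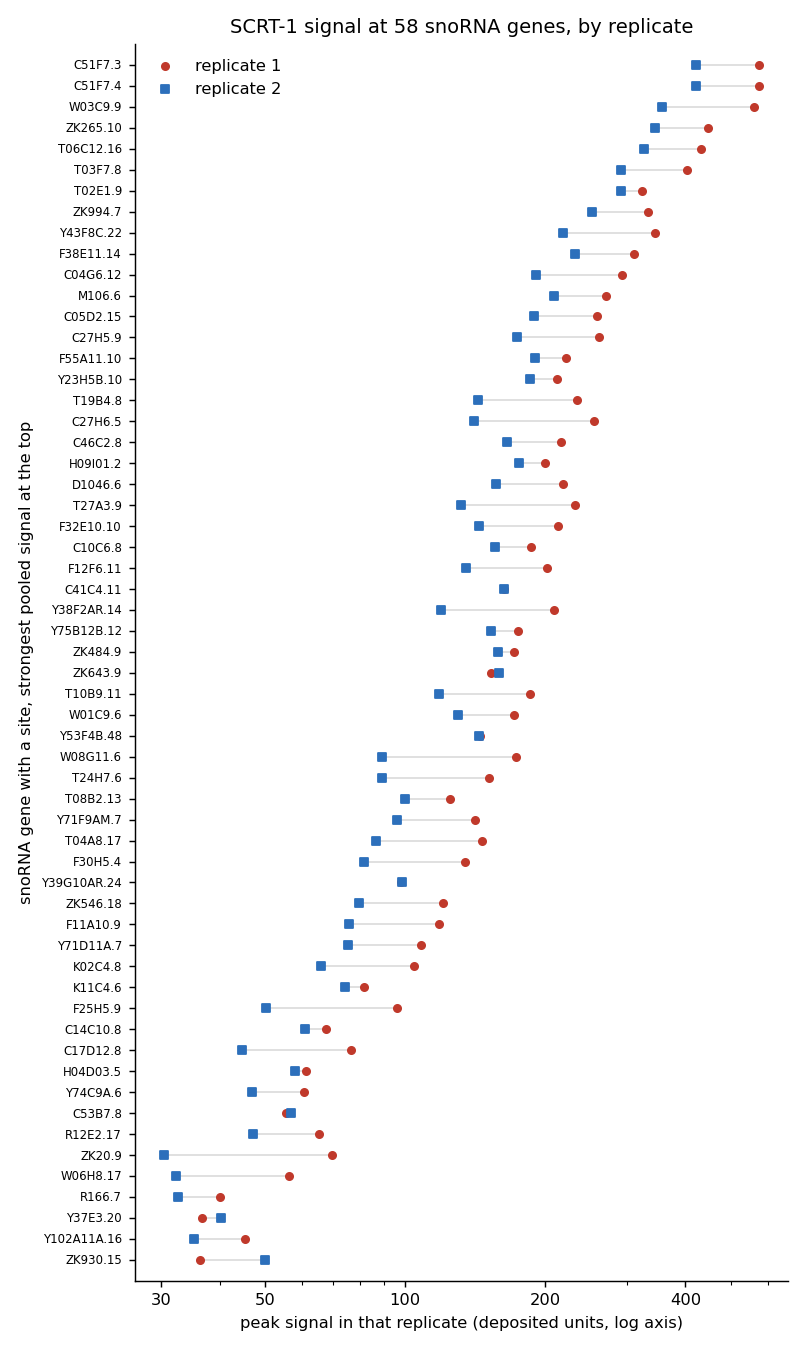
Signal of each of the 58 snoRNA genes in replicate 1 (red circles) and replicate 2 (blue squares) in the deposited units on a log axis, 1 row per gene, with the highest pooled signal at the top. Values range from 36.3 to 574 in replicate 1 and from 30.4 to 422 in replicate 2, and the red point lies to the right in 52 rows.

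The ratio of replicate 1 to replicate 2 had a median of 1.36 (quartiles 1.15 and 1.57). It was largest at ZK20.9 (2.28, with 69.6 in replicate 1 and 30.4 in replicate 2), W08G11.6 (1.94), F25H5.9 in the pyruvate kinase gene pyk-1 (1.91), C27H6.5 in unc-41 (1.81) and T27A3.9 (1.76). It was smallest at ZK930.15 (0.73), Y37E3.20 (0.91), ZK643.9 (0.96), C53B7.8 (0.98) and Y39G10AR.24 (0.99). The single largest and smallest ratios, at ZK20.9 and ZK930.15, were at genes of low pooled signal (105 and 56.7). Of the others named, C27H6.5 and T27A3.9 lay above the median pooled signal of 323, with 395 and 367. The rest lay below it. With 1 value per replicate, no gene's ratio has an error of its own.

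The summits lay ahead of the annotated RNA. The offset from the start had a median of -45 bp (quartiles -54.5 and -34), 54 of the 58 summits lay before the start and 43 lay 30 to 60 bp before it. The replicates' own summits gave medians of -47 bp in replicate 1 and -45.5 bp in replicate 2, and the 2 summits of a gene lay a median of 9.5 bp apart. The 2 summits more than 20 bp inside the gene were those of C51F7.4, at 38 bp, and Y102A11A.16, at 59 bp, where the summit lay at 109 bp in replicate 1 and -2 bp in replicate 2. At the 252 tRNA genes with a site the summit lay a median of 20 bp after the start, and 35 of 252 summits lay before it.

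A gap lies between the 58 genes and the rest at the limit of 100 bp. The members nearest to it were ZK265.10 at -75 bp, C51F7.3 at -71 bp and C10C6.8 at -68 bp. The nearest genes outside were F59C6.15 at -101 bp, F39B2.14 at -130 bp and Y39A1A.30 at -136 bp, whose sites had signals of 149, 130 and 79.7. No peak of the 58 genes lay within 100 bp of a tRNA gene's start, and the nearest tRNA start was 943 bp away.

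Among the other 288 snoRNA genes, 109 (37.8%) had a summit of the ranked candidate list, which holds peaks of any reproducibility, within 100 bp of the start. The share over all genes was not counted for that list, so this number has no background to be read against. The best candidate of each had a median signal of 30.9 and a highest one of 81.0, at F25H2.15. No candidate reached an irreproducible discovery rate (IDR, which is low for peaks ranked alike in the replicates) of 0.01, and the lowest was 0.0140, also at F25H2.15. At the 58 genes the IDR was at most 0.00999 with a median of 0.00010. The conservative list holds the peaks that passed this comparison of the replicates, so the split by IDR follows from the rule. By pooled signal the groups overlapped, as the lowest of the 58 genes had 56.7.

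The rule used the biotype and the annotated start of a gene, but neither its letters, its host nor its strand. Tests of 6 such features were made with Fisher's exact test, two-sided, with p-values adjusted by the Benjamini-Hochberg method over the 6. The features and words were chosen with earlier results of these data known, so the tests are not independent evidence. Genes are not replicates: these p-values describe these snoRNA genes and these 2 libraries. The 2 sets of genes also differ in annotation. Many of the 288 others carry gene identifiers from WBGene00219780 to WBGene00220248. Among the 58 genes only C51F7.4, ZK20.9, W06H8.17, Y102A11A.16 and ZK930.15 do. Features were not compared within that series of identifiers, so its part in the differences was not tested. The clearest difference was in the B box letters. GTTCGANNC, read on the gene's strand from 250 bp before to 50 bp after the start, was present at 17 of the 58 genes with a site (29.3%, interval 18.1 to 42.7) and at 6 of the 288 others (2.08%, interval 0.768 to 4.48). The odds ratio was 19.5 (95% interval 7.27 to 52.3; by two-sided Fisher's exact test, adjusted p = 2.04e-09). On the same strand and in windows of the same length the letters occurred at 0.806% of 19973 protein-coding starts and at 1.10% of all gene starts.

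Where the window was cut to 100 bp before the start, the count at genes with a site remained 17 and that at the others was 2. Among intronic genes alone the letters were present at 8 of 29 with a site and 4 of 140 others (odds ratio 13.0; by Fisher's exact test, adjusted p = 0.000278, the highest over the alternatives, which began at 5.73e-12). The scrambled control word TCGTAGNNC occurred at 0 of 58 genes with a site and 1 of 288 others. Base composition also differed: the 100 bases before the start had a median GC content of 55% at genes with a site and 42% at the others. The part of GC content in the counts was not tested.

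A box letters showed the same split, as a description. TGGCNNAGT, on the gene's strand in the same window, was found at 15 of 58 genes with a site and 8 of 288 others, and at 1.08% of protein-coding starts. TAGCNNAGT, which W03G11.t1 carries, was found at 1 of 58 and 1 of 288. TATAAA, letters of a TATA box, was found at 8 of 58 and 44 of 288.

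Snail family proteins of other animals are known to bind E-box letters, which were counted next. CAGGTG, on either strand, was present at 3 of 58 genes with a site (5.17%), 19 of 288 others (6.60%) and 8.48% of protein-coding starts. The related CAAGTG was present at 6 of 58, 45 of 288 and 12.4%. GAGAGA, on either strand, was present at 17 of 58 and 69 of 288. These are counts of letters in a window, and a missing word says only that those letters are not there.

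The 2 tRNA-like words were also counted as a pair, where the search itself asked for a B-like word 20 to 75 bases after the A-like word. An A-like word followed by a B-like word, with up to 1 mismatch in each and from 150 bp before to 20 bp after the start, occurred at 32 of 58 genes with a site (55.2%), 4 of 288 others (1.39%) and 77 of 19973 protein-coding starts (0.386%). With up to 2 mismatches in the A-like word the counts were 41 of 58 (70.7%), 23 of 288 (7.99%) and 612 of 19973 (3.06%). At tRNA genes, scanned from 20 bp before to 150 bp after the start, the same 2 settings gave 76.5% and 99.2% of 612 genes. With no mismatch at all, 4 of 58 genes with a site had the pair and 1 of 288 others.

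In the 41 genes with a site and a pair, the A-like word began a median of 58 bp before the start and the B-like word 14 bp before it. The distance between the first bases of the words ran from 25 to 55 bases, with a median of 44. A spacing of 43 to 46 bases, a range not set in advance, was found at 33 of these 41 genes. Of the 23 other snoRNA genes with a pair, 6 had it. The tRNA genes with a site and a pair had this spacing at 191 of 250. At 37 of the 41 genes the B-like word ended before the annotated RNA began. Measured from the A-like word, the summit lay a median of 10 bp downstream (quartiles 5 and 21) at snoRNA genes and 12.5 bp downstream (quartiles 1 and 24.75) at tRNA genes. The chromatin was sheared to 200 to 800 bp, far longer than these distances. At the 41 genes the summits of the replicates lay 1 to 123 bp apart, with a median of 9 bp. The summit lay between the first base of the A-like word and the last base of the B-like word at 33 of 41 snoRNA genes and 181 of 250 tRNA genes. Summits also lay ahead of most genes without a pair. Their median offset from the start was -32 bp (quartiles -45 and -8) over 17 genes. It was -48 bp (quartiles -55 and -40) over the 41 with a pair. Whether the summit follows the words was not tested.

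**Figure D3:**
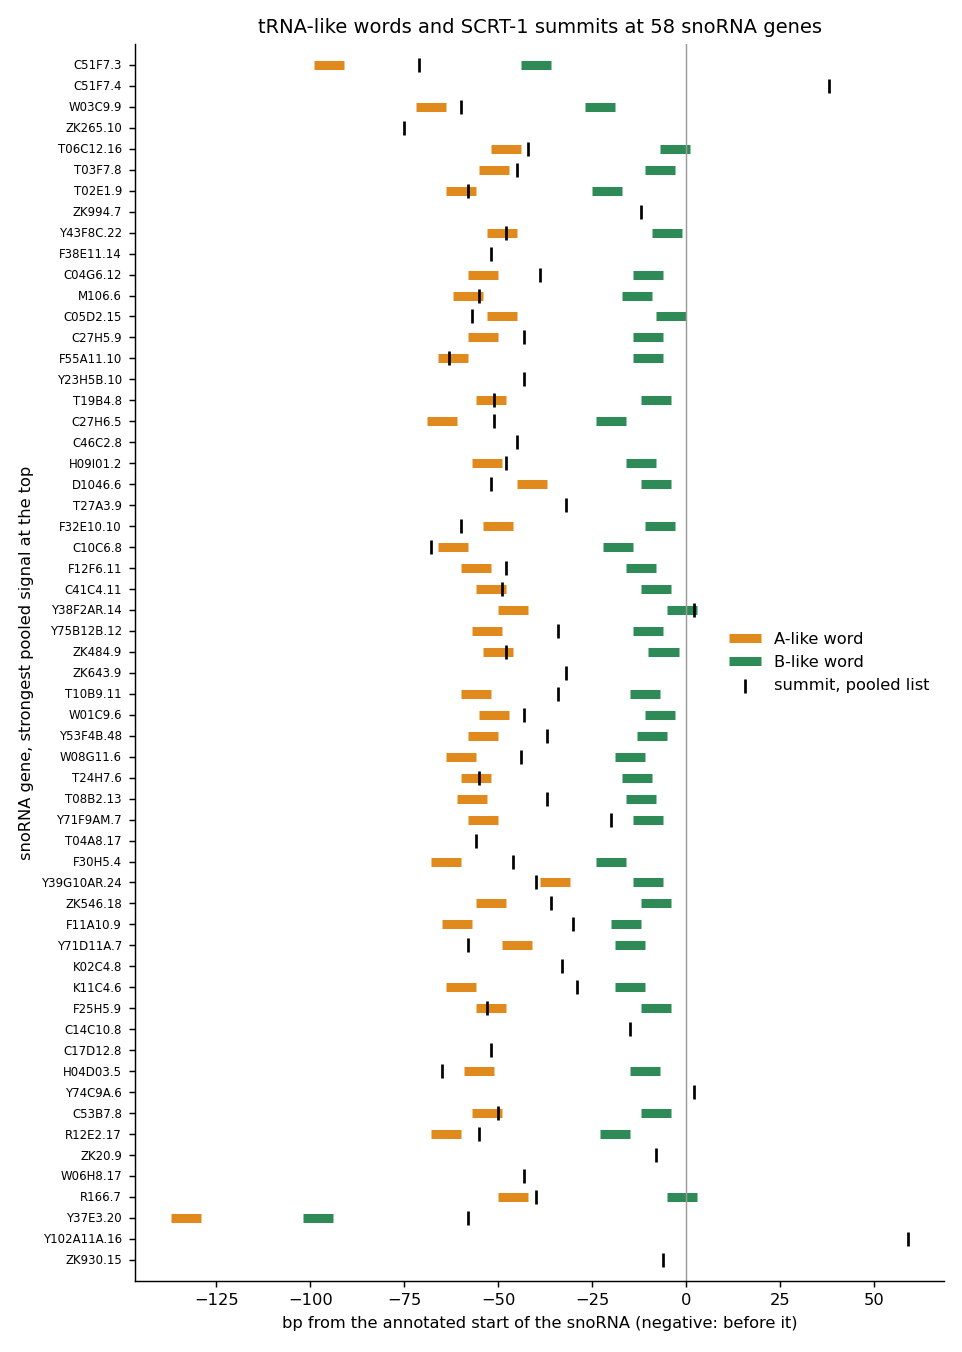
Position of the A-like word (orange), the B-like word (green) and the pooled summit (black tick) relative to the annotated start of each of the 58 snoRNA genes, in bp, with the highest signal at the top. In 33 of the 41 rows that have a pair the words begin 43 to 46 bases apart, and the summit falls from the A-like word to the B-like word in 33 of 41.

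**Figure D4:**
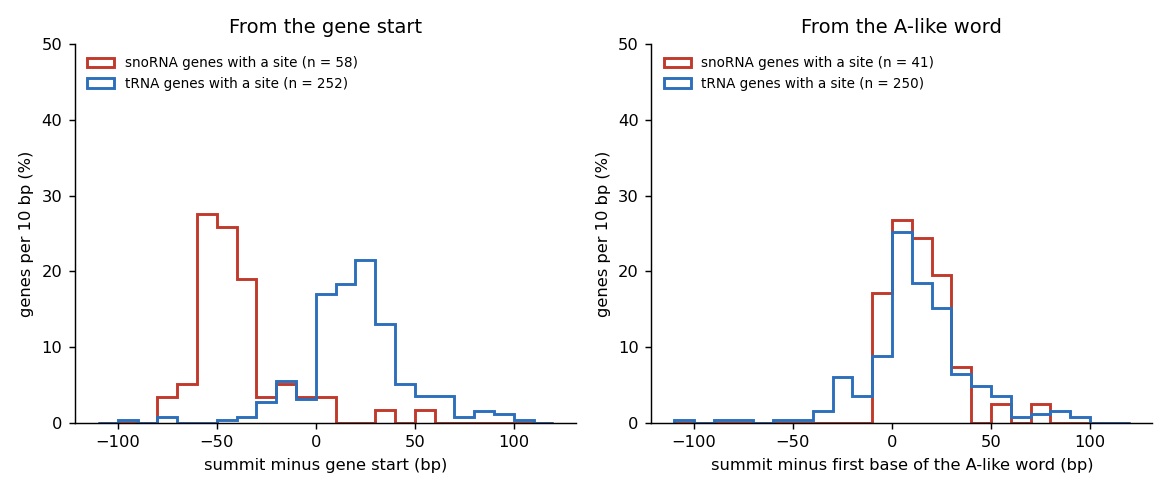
Share of genes per 10 bp by the distance of the summit from the gene start (left) and from the first base of the A-like word (right), for snoRNA genes (red) and tRNA genes (blue) with a site. From the start the medians are -45 bp at snoRNA genes and 20 bp at tRNA genes, and from the A-like word they are 10 bp and 12.5 bp.

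The pair was found at 25 of 29 intronic genes with a site (86.2%, exact interval 68.3 to 96.1) and 13 of 23 between genes (56.5%, exact interval 34.5 to 76.8). The intervals overlap and the difference was not tested. Of the 6 genes that overlap coding genes in another way, 3 had it. The same setting found it at 16 of 140 other intronic snoRNA genes and 6 of 101 others between genes. The 41 genes with a pair had a median signal of 334 and the 17 without had 237. The ranges overlapped almost wholly, 77.8 to 993 with a pair and 56.7 to 993 without. Of the 20 genes of highest signal 14 had a pair, and of the 20 of lowest signal 12 had one.

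The 17 genes without the pair are a mixed group. Some miss it only by the mismatch limit of the B-like word, which was chosen after the sequences had been seen. F38E11.14, C46C2.8, ZK643.9, T04A8.17 and K02C4.8 have an A-like word within its limit, followed by B-like letters that exceed theirs. A looser limit for the B-like word was not counted at the other snoRNA genes, protein-coding starts or tRNA genes. These near misses therefore have no background to be read against. C51F7.4 shares the peak of a gene that has a pair. ZK265.10, ZK994.7, F38E11.14, Y23H5B.10, C46C2.8, T27A3.9 and ZK643.9 had signals from 313 to 789, and T04A8.17, K02C4.8, C14C10.8 and C17D12.8 had 123 to 237. Y74C9A.6, ZK20.9, W06H8.17, Y102A11A.16 and ZK930.15 had 56.7 to 108, and their summits, except that of W06H8.17 at -43 bp, lay from -8 to 59 bp. The 17 genes had a peak in both replicates' own lists at 11 of 17, against 36 of 41 for genes with a pair.

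In 2 genes of the set the leader is itself annotated as a tRNA pseudogene on the same strand. D1046.6, in the cleavage factor gene cfim-2, is preceded by WBGene00014724 (chrIV:8927200-8927273), which holds both words. T08B2.13, in the phenylalanyl-tRNA synthetase gene fars-1, is preceded by WBGene00023344, which likewise holds both. D1046.6 had a signal of 372, with 218 in replicate 1 and 157 in replicate 2, and T08B2.13 had 242, with 125 in replicate 1 and 99.8 in replicate 2. No pair overlapped an annotated tRNA gene.

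A run of TTTT within the 50 bases after the annotated end was present at 54 of 58 genes with a site (93.1%, interval 83.3 to 98.1) and 187 of 288 others (64.9%, interval 59.1 to 70.4). The odds ratio was 7.29 (95% interval 2.57 to 20.7; by two-sided Fisher's exact test, adjusted p = 2.00e-05). The run began a median of 5 bases after the end at genes with a site and 14 bases after it at the others, and all 41 genes with a pair had one. With TTTTT the counts were 42 of 58 and 99 of 288. The first 30 bases after the end of 4 of the strongest genes show the run in capitals.
C51F7.3 (chrV:12303784-12303813, plus strand): cTTTTTTccaaaaagatttctcattaaata
W03C9.9 (chrII:11960960-11960989, plus strand): TTTTTacacttttaacactttttcgttgaa
T06C12.16 (chrV:15873825-15873854, minus strand): TTTTTTgcaaattttctttcaatttcaaag
T03F7.8 (chrV:11314333-11314362, plus strand): taTTTTTcggtttttatacataactcaccc

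Place in the genome gave no difference that passed the test. A gene counted as intronic when it lay wholly inside an intron of a protein-coding transcript and overlapped no exon of one on either strand. Of the 58 genes with a site, 29 lay wholly inside an intron of a protein-coding gene (50%), and of the 288 others 140 did (48.6%), with an odds ratio of 1.06 (95% interval 0.601 to 1.86; by two-sided Fisher's exact test, adjusted p = 0.886). Another 23 of 58 and 101 of 288 lay between genes. Among intronic genes 22 of 29 with a site (75.9%) and 119 of 139 others (85.6%) had the strand of the host, an odds ratio of 0.53 (95% interval 0.200 to 1.40; by two-sided Fisher's exact test, adjusted p = 0.316). Both intervals include an odds ratio of 1, and both are wide.

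The 29 intronic genes sat in 29 different host genes. None of the hosts was a gene for a ribosomal protein (rpl or rps), a class not named in advance. It hosted 19 of the 140 other intronic snoRNA genes (13.6%, exact interval 8.37 to 20.4). The exact upper limit for 0 of 29 is 11.9%, so the intervals overlap, and the difference was not tested. The hosts include mix-1, fars-1, pyk-1, the proteasome subunit gene rpn-8, the spectrin gene unc-70 and the channel gene cng-3. Only pdl-1 hosted a gene of each kind: C27H5.9, with a site, lies in intron 1, and C27H5.10, without one, lies in intron 2, both opposite to the host. The introns had a median length of 322 bp at genes with a site and 537.5 bp at the others.

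By chromosome, genes with a site were 14 of 74 on I, 14 of 71 on II, 6 of 54 on III, 9 of 59 on IV, 13 of 55 on V and 2 of 33 on X. The X chromosome had the lowest share, 6.06% (exact interval 0.743 to 20.2), which overlaps the intervals of all others.

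The letters of box C and box D, in the form searched, were found together in a minority of genes. The letters of box C and box D were sought as TGATGA starting within the first 20 bases and CTGA overlapping the last 20. Both were found in 6 of 58 genes with a site (10.3%) and 9 of 288 others (3.13%). The odds ratio was 3.58 (95% interval 1.22 to 10.5, by two-sided Fisher's exact test, adjusted p = 0.0378). This call was lost in 5 of 10 alternatives, among them a limit of 200 bp in place of 100 bp (adjusted p = 0.0518, Fisher's exact test) and the own list of replicate 2 alone (adjusted p = 0.0807). Over the 10 alternatives the adjusted p of Fisher's exact test ran between 0.00443 and 0.661. The 6 genes are C51F7.3, W03C9.9, F55A11.10, F30H5.4, R12E2.17 and Y74C9A.6, with signals from 107 to 993. The gene C51F7.3 is printed with box C and box D letters in capitals, and Y43F8C.22 with the ACA near its end.
C51F7.3 (chrV:12303708-12303783, plus strand): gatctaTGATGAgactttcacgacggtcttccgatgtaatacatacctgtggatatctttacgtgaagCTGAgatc
Y43F8C.22 (chrV:19643050-19643187, minus strand): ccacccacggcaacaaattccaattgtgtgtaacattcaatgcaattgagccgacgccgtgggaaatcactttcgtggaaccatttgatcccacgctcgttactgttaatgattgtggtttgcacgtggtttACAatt

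Stretches shared with other places of the genome were rarer at genes with a site. At least 1 run of 30 bases from the gene and the 100 bp on each side occurred elsewhere at 3 of 58 genes with a site (5.17%) and 59 of 288 others (20.5%), an odds ratio of 0.21 (95% interval 0.0640 to 0.701; by two-sided Fisher's exact test, adjusted p = 0.00860). The 3 genes are C46C2.8, ZK643.9 and C53B7.8. The call was lost in 4 of 10 alternatives, including each replicate's own list alone (Fisher's exact test, adjusted p = 0.0717 for replicate 1 and 0.0807 for replicate 2). Over the 10 the adjusted p of the same exact test ran between 0.00883 and 0.249. How reads from shared stretches were treated is not given in the sources used here, and their part in the difference was not tested.

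**Figure D5:**
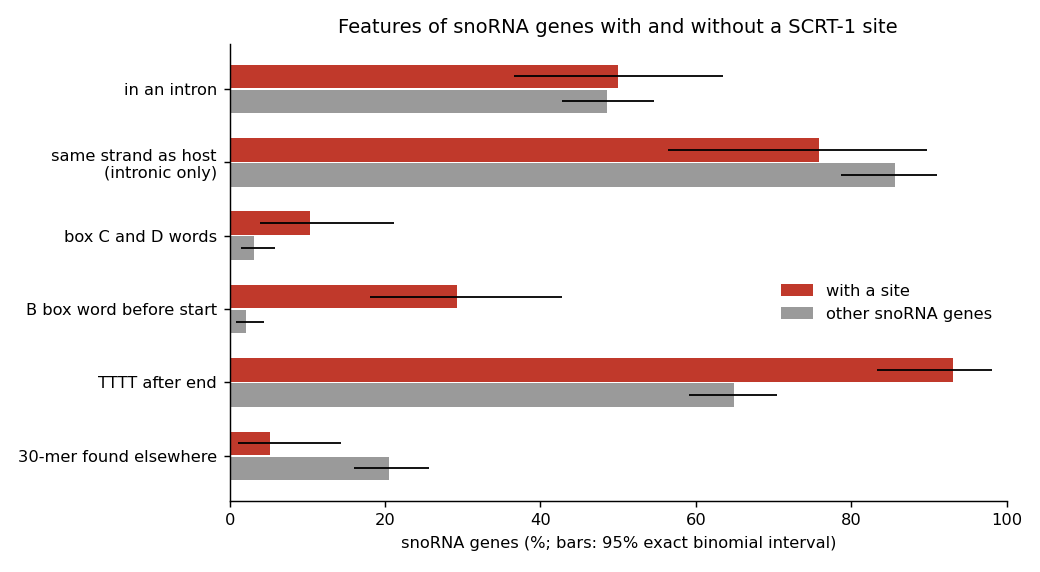
Share of snoRNA genes that carry each of the 6 features, for the 58 genes with a site (red) and the 288 others (grey), with exact 95% binomial intervals; the strand of the host is counted over 29 and 139 intronic genes. The intervals are apart for the B box letters (29.3% and 2.08%), the T run (93.1% and 64.9%) and the shared stretches (5.17% and 20.5%), and overlap for the other features.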

How the data were processed

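The series holds 2 biological replicates of 1 group. The files used are peak lists (build ce11, per the labels) with a signal value for each peak as the authors deposited it and, in the ranked list, the deposited −log10 of the global IDR. Aligner, peak caller and read depth: not given in the sources used here; the control named in the labels was not analysed here. The replicate columns of the ranked list were assigned by exact match of coordinates and signal to each replicate's own ranked list. Of 1211 sites, 1208 and 1201 matched. Each replicate's ranked list is not its thresholded own list, which the counts above used.

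Gene models were Ensembl release 115, biotype snoRNA, and sequence was RefSeq WBcel235; tRNA names and products are RefSeq's. A gene was a member when a conservative summit lay within 100 bp of its annotated start. Intervals on shares are exact (Clopper-Pearson), those on odds ratios normal on the log scale, at 95%, and they cover counting error only. Features were compared by Fisher's exact test, adjusted over 6 tests with a threshold of 0.05, after a check on simulated data. Members, lists, words and tests were chosen with earlier results of these data known. Genes named by rule are the 15 members of highest and 3 of lowest signal, summits over 20 bp inside the gene, genes that share a peak, the 5 largest and 5 smallest replicate ratios, and up to 3 genes on each side of the limit; other named genes were chosen after their values were seen. Sequences of chromosome I are not printed. Python 3.11.15 was used with pandas 2.3.3, SciPy 1.17.1 and matplotlib 3.10.9.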

Additional observations from a re-analysis of the deposited data

How the results depend on the processing

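The calls for the B box letters and the T run held in all alternatives tried, with odds ratios between 8.79 and 59.3 for the B box letters and between 4.995 and 14.2 for the T run. Genes with a site numbered 36 within 50 bp, and 51 and 52 without replicate 1 and without replicate 2. Within 50 bp the median offset was -38 bp, and without 1 replicate it was -48 to -46 bp. The replicate 1 median signal was 201 at an IDR of 0.001, and 202 and 210.5 for peaks in both own lists by 1 bp or by 50% of their width.

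The odds ratio for lying in an intron, never past the threshold, was 0.56 within 50 bp and 0.82 for any overlap with a coding gene. That for box C and D letters lost its call within 50 bp (1.34), within 200 bp (3.27), at an IDR of 0.001 (2.37) and for peaks in both own lists by 1 bp (3.44), and was 3.10 to 4.13 without 1 replicate. That for shared stretches lost it within 50 bp (0.39), in the ranked list at an IDR of 0.05 (0.41) and without 1 replicate (0.34 to 0.35). The cause was not tested. No paired analysis was possible because there is 1 group. With 2 replicates and no read depth, no gene's signal has an error of its own.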

Other observations

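The lengths of the annotated RNAs fell into 2 classes, described after they had been seen. Of the 58 genes with a site, 26 encode RNAs of 60 to 80 bases and 24 RNAs of 110 to 150 bases, together 50 of 58, against 129 of 288 other snoRNA genes. Of the 29 with RNAs over 100 bases, 17 had ACA placed 3 bases before the end (58.6%, exact interval 38.9 to 76.5), against 39 of 222 other snoRNA genes of that length (17.6%, exact interval 12.8 to 23.2). Of the 29 shorter ones, 19 had CTGA in the last 20 bases, against 26 of 66 others. The part of the annotation series in these counts of length and letters was not tested.

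Among all words of 6 letters in the 100 bases before the start, counted without a test, GTTCGA differed most in frequency, at 20 of 58 genes with a site and 4 of 288 others. GCGCAG followed at 16 of 58 and 6 of 288.

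Only 4 snoRNA genes without a site had both tRNA-like words with up to 1 mismatch in each: T13E5.1, F19H8.6, K10D2.10 and Y59E1B.14. The leaders of F19H8.6, in mltn-9, and Y59E1B.14 are annotated tRNA pseudogenes on the same strand. F19H8.6 had a candidate peak with a summit 43 bp before the start, with values of 24.4 in replicate 1 and 21.3 in replicate 2 and an IDR of 0.178. T13E5.1 and Y59E1B.14 had no candidate within 100 bp.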
